A study of Mus musculus with 13 samples.

Results

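The 9 genes described here are markers by which type 2 conventional dendritic cells (cDC2), monocytes and macrophages are usually told from other cells: Sirpa, Itgam, Esam, Mgl2, Clec4a4, Lyz2, Cd68, Adgre1 and Ly6c2. They are 9 of the 22180 genes with a probe set of their own on the arrays. Each was taken as the probe set listed under its symbol alone, and all 9 had 1 such probe set. Conventional dendritic cells of the mouse spleen come in 2 kinds. CD8+ type 1 cells (cDC1) depend on the factors IRF8 and BATF3 and cross-present antigen to CD8 T cells. cDC2 depend on IRF4 and Notch2 signals, carry SIRPα and CD11b, and present antigen mainly to CD4 T cells. Monocytes and macrophages share many surface and lysosomal proteins with cDC2, and Ly6C marks the classical monocyte.

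The cells were CD205+CD8+ dendritic cells, a cDC1 phenotype, sorted from spleens of C57Bl/6 littermates that are labelled male and were 6 weeks old. All mice carried B16 melanoma cells secreting Flt3L, a cytokine that expands dendritic cells, given under the skin as 5e6 cells 5 days before treatment. MDP mice received 50 ug of muramyl dipeptide, the bacterial cell wall fragment sensed by NOD2, in 100 ul of PBS into the peritoneum, and PBS mice received 100 ul of PBS alone. After 24 h the sorted cells were divided by their surface level of CD103, which is the αE integrin chain and the product of Itgae. The 13 arrays were MDP CD103 high (n = 3), MDP CD103 low (n = 3), PBS CD103 high (n = 3) and PBS CD103 low (n = 4). CD103 was read after MDP, so the high and low gates of MDP mice need not hold the same cells as those of PBS mice. The labels do not tie each array to a separate mouse, and p-values therefore cover the spread between arrays, which may be technical in part. Lower RNA per cell and fewer cells of a type cannot be told apart in such bulk samples.

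Markers of the labelled cell type were bright. All 16 measured cDC1 markers lay above background, among them Cd8a, Ly75 (CD205) and Itgae, the genes of the sort. Background was taken as 5.12 on the log2 scale, the 95th percentile of 1105 olfactory receptor genes. Of 13 other cDC2 genes only 1 was at or below it, and 11716 of all 22180 genes were above, so this count does not tell cDC1 from cDC2. The array means of the 16 markers were 10.87 to 11.22, against 6.99 to 7.34 for the other cDC2 genes. Such levels have the limit that probe sets differ in how brightly they bind. Itgae averaged 11.35 ± 0.21 in MDP CD103 high, 10.13 ± 0.52 in MDP CD103 low, 10.15 ± 0.08 in PBS CD103 high and 7.92 ± 0.41 in PBS CD103 low (log2, SD). Xist, expressed from the inactive X of females, was at 10.98 to 11.21 in 7 arrays, in which Y-linked genes were low, and at 4.47 to 6.69 in the other 6, although all mice are labelled male. Each of the 4 groups held both kinds of array. MDP CD103 low replicate 1 stood apart, with Ccr7, the chemokine receptor of mature migrating dendritic cells, at 10.37, where replicates 2 and 3 had 8.58 and 8.84. Values without that array stand beside several of the results in which it was an extreme.

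Across the 4 groups the means of the cDC2 and monocyte markers spanned up to 0.60 on the log2 scale, and 1 marker, Sirpa, passed the test over all genes. The means of Lyz2 and Ly6c2 spanned more (0.60 and 0.52) than those of Sirpa (0.50), with more spread between arrays. In MDP mice the CD103 high cells had less Sirpa RNA than the CD103 low cells, by a log2 difference of -0.50 or 1.41-fold, and this was the only one of 63 tests of the 9 genes (7 contrasts each) that passed an adjusted p of 0.05 over all genes. For Lyz2 the log2 difference between CD103 high cells of MDP and PBS mice was -0.60, with an adjusted p of 0.101 (limma). Ly6c2 had the widest spread between arrays of a group in all groups but MDP CD103 low. Cd68 and Mgl2 had the narrowest span of group means.

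The shares of all genes called give the scale for these counts (limma with Benjamini-Hochberg adjustment, threshold 0.05). In MDP mice, 1 of 9 markers was called between CD103 high and low cells, where 0.523% of all genes were called and 0.0496% were called lower, and 2 of 9 had an unadjusted p under 0.05, against 10.2% of all genes. Between MDP and PBS in CD103 high cells 0 of 9 were called, where 1.82% of all genes were called, although 3 of 9 had an unadjusted p under 0.05, against 13.3% of all genes. Between CD103 high and low cells of PBS mice 0 of 9 were called, where 0.0766% of all genes were called, and 2 of 9 had an unadjusted p under 0.05, against 8.52% of all genes. Between MDP and PBS in CD103 low cells 0 of 9 were called, where 0.00451% of all genes were called, and 0 of 9 had an unadjusted p under 0.05, against 6.06% of all genes. The average of CD103 high minus low over treatments called 0 of 9 (0.126% of all genes), with 3 of 9 at an unadjusted p under 0.05 (9.56% of all genes). The average of MDP minus PBS called 0 of 9 (0.185% of all genes), with 1 of 9 at an unadjusted p under 0.05 (11.8% of all genes). The interaction, which asks whether the MDP response differed between CD103 high and low cells, called 0 of 9 (0.0721% of all genes), with 3 of 9 at an unadjusted p under 0.05 (9.63% of all genes).

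The median log2 difference of the 9 markers lay below that of all genes in each contrast. It was -0.11 for the interaction, against -0.01 for all genes, and -0.09 between CD103 high and low cells of PBS mice, against -0.003 for all genes. It was -0.02 between CD103 high and low cells of MDP mice, against -0.01 for all genes. Between MDP and PBS in CD103 high cells it was -0.06, against -0.01 for all genes, and 7 of 9 markers had a value below 0. Between CD103 high and low cells of MDP mice 3 of 9 markers did not overlap (Adgre1 higher, Sirpa and Clec4a4 lower), and 14.4% of all genes did not. Between MDP and PBS CD103 high cells 2 of 9 did not overlap (Sirpa and Lyz2, both lower), and 19% of all genes did not. In the other 2 comparisons 0 of 9 were free of overlap, against 8.53% of all genes between CD103 high and low in PBS mice and 5.5% of all genes between MDP and PBS in CD103 low cells.

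**Figure D1:**
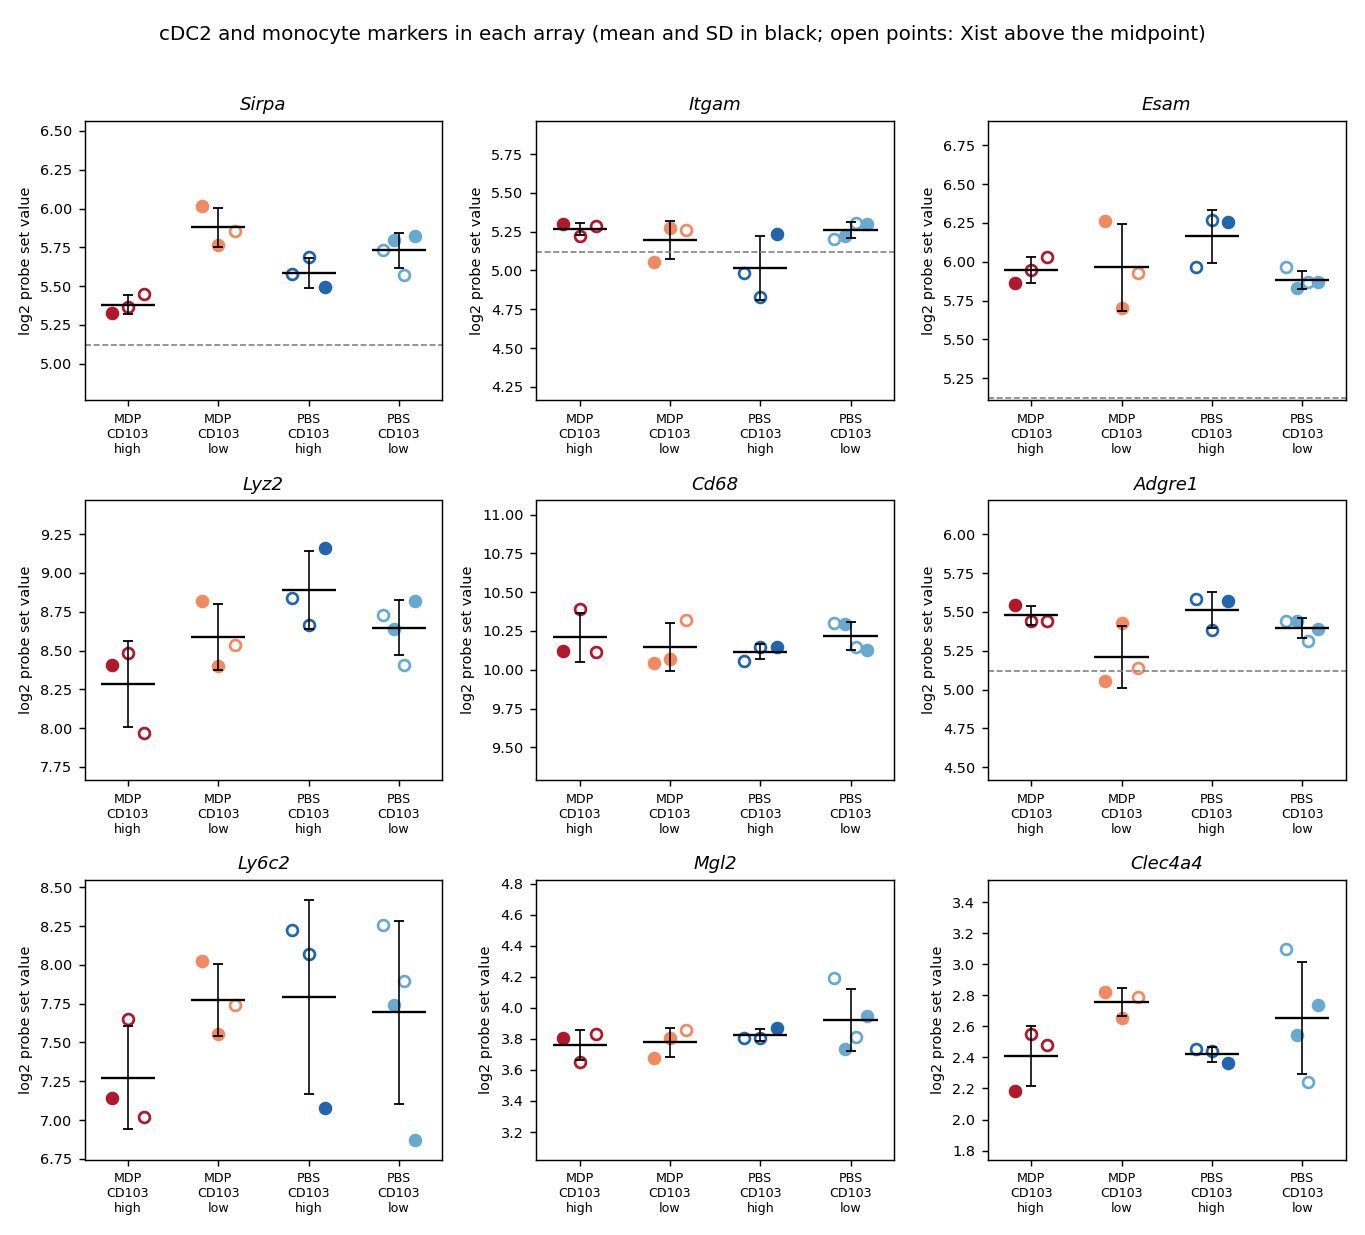
Log2 probe set value (y axis, each panel 1.8 units high) of the 9 markers in each array (points), with group mean and SD in black; open points are arrays with Xist above the midpoint between the lowest and highest array, and the dashed line is the background level of 5.12. Sirpa in MDP CD103 high cells sat at 5.33 to 5.45, below all arrays of the other 3 groups, while Ly6c2 spread from 7.08 to 8.23 within PBS CD103 high cells alone.

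Among the surface proteins of cDC2, Sirpa encodes SIRPα, the receptor for CD47 that gives phagocytes an inhibitory signal and that is the standard cDC2 marker opposite XCR1 on cDC1. Its log2 values were 5.33, 5.36 and 5.45 in MDP CD103 high cells, against 6.01, 5.77 and 5.86 in MDP CD103 low cells. In PBS mice they were 5.58, 5.69 and 5.49 in CD103 high cells, against 5.73, 5.80, 5.57 and 5.82 in CD103 low cells. The 3 MDP CD103 high arrays were the lowest of all 13, and the CD103 high and low arrays of PBS mice overlapped. All of these levels were modest, close to the median over genes of 5.27.

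In MDP mice the log2 difference of Sirpa, CD103 high minus low, was -0.50 ± 0.09 (SE; 95% interval -0.70 to -0.30; limma, adjusted p = 0.0308). In PBS mice the difference was -0.15 ± 0.08 (95% interval -0.33 to 0.04; limma, adjusted p = 0.692). The interaction was -0.35 ± 0.12 with an adjusted p of 0.359 (limma), so a difference of the CD103 effect between treatments was not shown over all genes. Averaged over treatments, the log2 difference was -0.32 (limma, adjusted p = 0.0684), and with replicate number within treatment as a random block the adjusted p was 0.0431 (0.441 as a fixed block). Between MDP and PBS in CD103 high cells, the log2 difference was -0.20 (limma, adjusted p = 0.348).

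The call of Sirpa rests on few arrays. The log2 difference in MDP mice kept its sign in all 25 alternatives, between -0.56 and -0.43, but its adjusted p was under 0.05 in only 12 of them. Without MDP CD103 low replicate 1 it was -0.43 (limma, adjusted p = 0.117). The call was also lost without MDP CD103 low replicate 3 (limma, adjusted p = 0.0658), without MDP CD103 high replicate 2, 3 or 4 (limma, adjusted p = 0.138, 0.131 and 0.0566), and without PBS CD103 low replicate 1 (limma, adjusted p = 0.0539). The log2 difference was -0.45 within the 7 arrays with high Xist and -0.56 within the 6 with low Xist. The first split leaves 1 MDP CD103 low array and the second 1 MDP CD103 high array, too few to keep or lose a call. Arrays of the same replicate number within a treatment were taken as pairs. Their deviations from group means correlated weakly (r = 0.11 to 0.28), and arrays of unlike number were not compared. With such pairs as a random block the log2 difference was -0.50 (limma, adjusted p = 0.0172), and with the pairs as a fixed block, in which only paired arrays count, it was -0.47 (limma, adjusted p = 0.353). The 2 pairs of MDP arrays differed by -0.44 and -0.49 (CD103 high minus low, log2), and the 2 pairs of PBS arrays by 0.01 and -0.33.

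**Figure D2:**
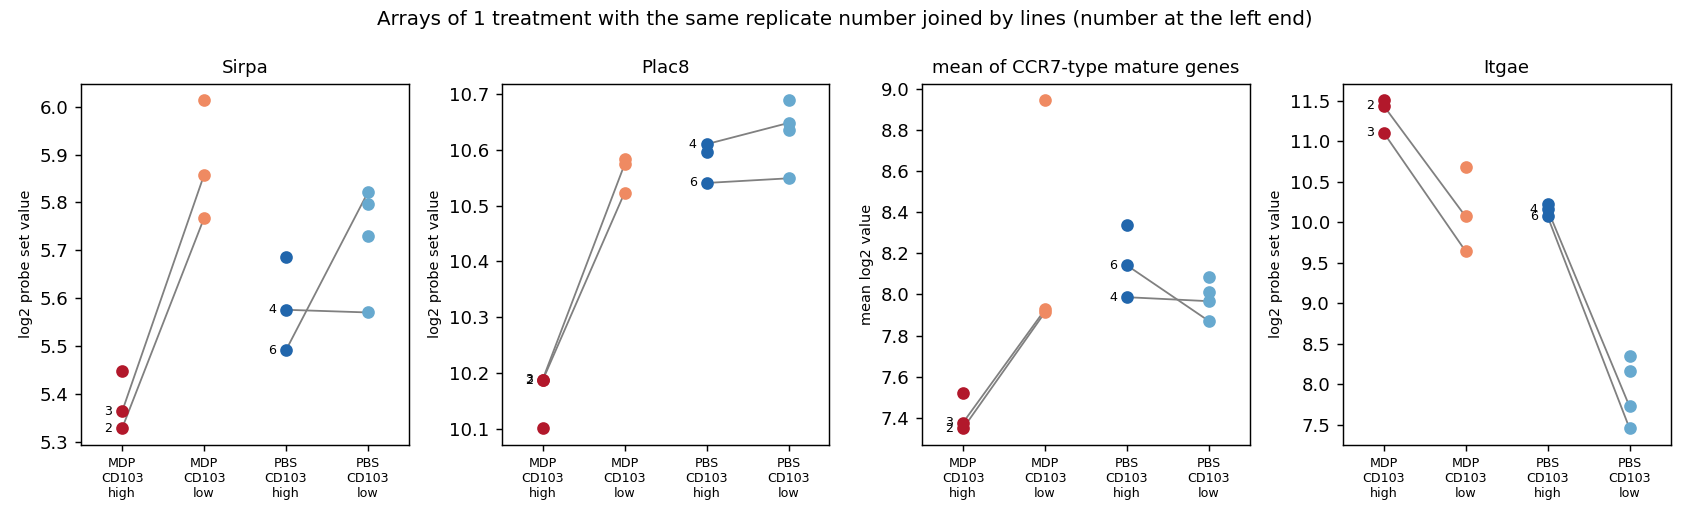
Log2 values (y axis) of Sirpa, Plac8, the mean of 23 genes of CCR7-type mature dendritic cells and Itgae in each array (points) of the 4 groups (x axis), with lines joining arrays of 1 treatment that share a replicate number. Sirpa, Plac8 and the mature gene mean were lower in the CD103 high member of both MDP pairs, and in PBS mice the 2 pairs of Sirpa were 0.01 and -0.33.

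Genes of mature dendritic cells were low in the same MDP CD103 high arrays as Sirpa. This list and the other gene lists here were chosen with earlier results of these data known. Their counts describe the values and carry no test. The mean log2 level of 23 genes of CCR7-type mature dendritic cells was 7.35 to 7.52 in MDP CD103 high arrays, 7.91 to 8.94 in MDP CD103 low, 7.99 to 8.34 in PBS CD103 high and 7.87 to 8.08 in PBS CD103 low arrays. Of the 23 genes, 22 had a value below 0 for CD103 high minus low in MDP mice (median log2 difference -0.58), against 12045 of 22180 over all genes. Past the threshold fell 3, among them Ccr7 and Ccl5, a chemokine that draws T cells, where 0.0496% of all genes did. Between MDP and PBS in CD103 high cells 22 of 23 were below 0 and 5 fell past the threshold, where 0.397% of all genes did. For CD103 high minus low in MDP mice without MDP CD103 low replicate 1, 21 of 23 were below 0 (median log2 difference -0.25). There 3 fell past the threshold, with no share of all genes taken for that fit, so this count has no scale. Over all genes, 0 to 140 were called in either direction with each array left out in turn, against 116 in all arrays. In PBS mice the sign was opposite to that of Sirpa: 21 of 23 were above 0 for CD103 high minus low, against 10852 of 22180 over all genes. The median log2 difference was 0.23, and 0 passed the threshold. MDP CD103 low replicate 1, with the highest mean of this list, also had the highest Sirpa value of all arrays. The part of cell maturation in the Sirpa difference was not tested. The genes whose pattern over the 13 arrays was most like that of Sirpa, among 11716 genes above background and named after their values were seen, were Fam53b (Pearson r = 0.915), Mthfsl (r = 0.9) and Zmynd15 (r = 0.858).

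Itgam encodes CD11b, the αM chain of the complement receptor CR3, carried by cDC2, monocytes, macrophages and neutrophils. Log2 values of Itgam were 5.30, 5.23 and 5.28 in MDP CD103 high cells, against 5.05, 5.27 and 5.26 in MDP CD103 low cells. In PBS mice they were 4.98, 4.83 and 5.23 in CD103 high cells, against 5.20, 5.23, 5.30 and 5.30 in CD103 low cells. All 13 values lay within 0.5 of each other and near the background level of 5.12, and the lowest 2 arrays were PBS CD103 high replicates 4 and 5. The CD103 high minus low log2 difference was -0.24 in PBS mice (limma, adjusted p = 0.507), with overlapping arrays. The MDP minus PBS log2 difference in CD103 high cells was 0.25 (limma, adjusted p = 0.276), also with overlap.

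Esam encodes an adhesion molecule that marks the Notch2-dependent cDC2 of the spleen. It had log2 values of 5.87, 5.95 and 6.03 in MDP CD103 high cells, against 6.26, 5.70 and 5.93 in MDP CD103 low cells. In PBS mice it had 5.97, 6.27 and 6.26 in CD103 high cells, against 5.97, 5.83, 5.87 and 5.87 in CD103 low cells. The highest PBS CD103 low array and the lowest PBS CD103 high array met at 5.97, so the PBS groups touched, and the difference was 0.28 on the log2 scale (limma, adjusted p = 0.544). MDP CD103 low replicate 1 was again the highest array of its group, at 6.26.

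Mgl2 and Clec4a4 were not above background. Mgl2 encodes the C-type lectin CD301b, found on dermal and some other cDC2. Its log2 values lay between 3.65 and 4.19 in all 13 arrays, and the 95% intervals of its 4 pairwise log2 differences lay within -0.36 to 0.22. Clec4a4 encodes DCIR2, the antigen recognised by the antibody 33D1 that marks splenic cDC2, and in the sort used here CD205 is the cDC1 counterpart of that pair. Clec4a4 had log2 values of 2.19, 2.55 and 2.48 in MDP CD103 high cells, against 2.82, 2.66 and 2.79 in MDP CD103 low cells. It had 2.45, 2.44 and 2.37 in PBS CD103 high cells, against 3.10, 2.55, 2.24 and 2.74 in PBS CD103 low cells. The MDP groups did not overlap and the PBS groups did, and all values were below the median of the olfactory receptor genes (2.97) except the 3.10 of PBS CD103 low replicate 1. The average CD103 high minus low log2 difference was -0.29 (limma, adjusted p = 0.451).

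The relatives of these genes were as dim. Clec10a, which encodes the sister lectin CD301a, averaged 3.74 ± 0.04 in MDP CD103 high, 3.77 ± 0.41 in MDP CD103 low, 3.77 ± 0.15 in PBS CD103 high and 3.88 ± 0.38 in PBS CD103 low cells (log2, SD). Clec4b1, a lectin of the same cluster as Clec4a4, had log2 values of 2.97, 2.93 and 2.56 in MDP CD103 high cells, against 3.08, 3.58 and 3.44 in MDP CD103 low cells. These 2 groups did not overlap, at levels near the median of the olfactory receptor genes. Of 10 measured close relatives of the markers as a whole, among them Lyz1 at a mean of 6.46, 8 were at or below background. In none of the 7 contrasts was any of them called.

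**Figure D3:**
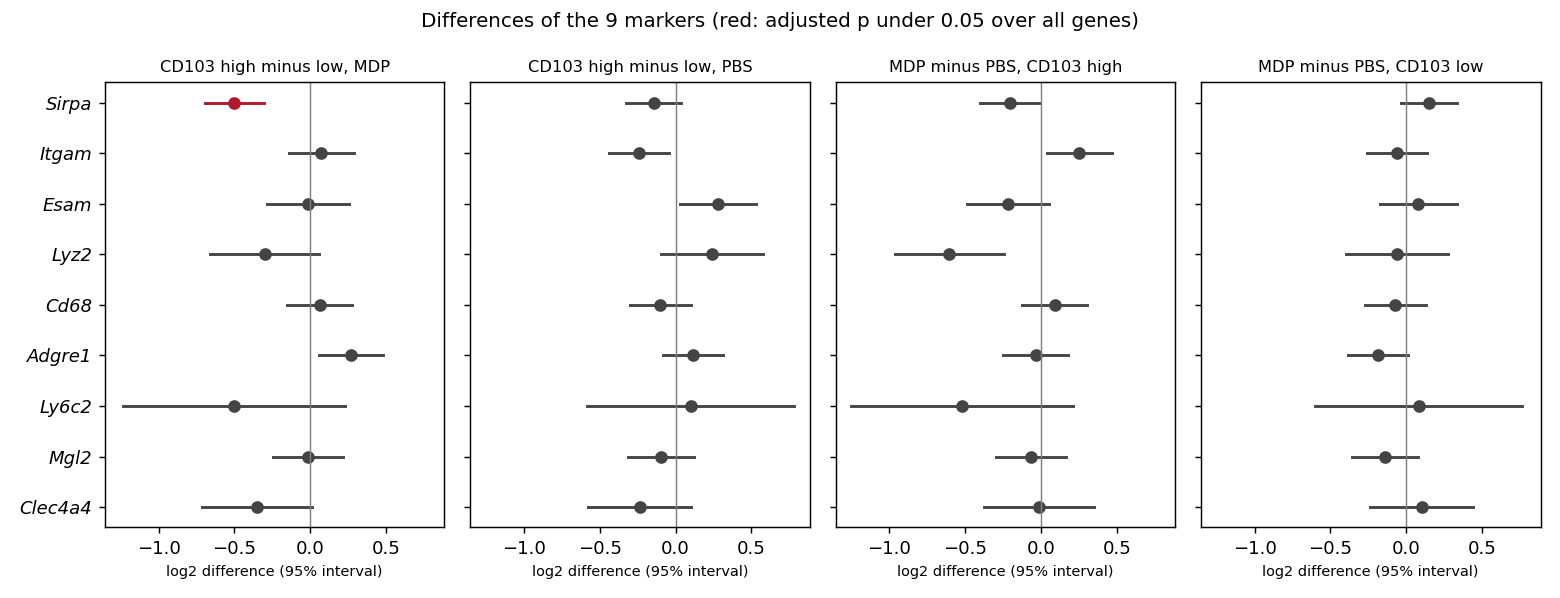
Log2 difference (x axis) with its 95% interval for each of the 9 markers (rows) in the 4 pairwise comparisons (panels); red marks an adjusted p under 0.05 over all genes. Sirpa between CD103 high and low cells of MDP mice, at -0.50, is the only red point, and the intervals of Ly6c2 are the widest.

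Of the other genes associated with cDC2, 13 of 14 were measured, 12 of them above background, and 0 were called in any contrast of all arrays. The smallest p belonged to Ltb, which encodes lymphotoxin β, a signal that supports splenic cDC2. Ltb had log2 values of 6.14, 5.97 and 6.35 in MDP CD103 high cells, against 7.93, 6.60 and 6.70 in MDP CD103 low cells. The 2 groups did not overlap, the 7.93 came from replicate 1, and the log2 difference was -0.92 ± 0.27 (limma, adjusted p = 0.206), or -0.50 ± 0.15 without replicate 1 (limma, adjusted p = 0.328). The MDP minus PBS log2 difference of Ltb in CD103 high cells was -0.72 (limma, adjusted p = 0.254), and leaving out the same array, which is in neither group but enters the shared spread, gave an adjusted p of 0.0131 (limma). Irf4, the transcription factor that cDC2 depend on, was at 5.07 to 5.15 in MDP CD103 high arrays, 5.23 to 6.18 in MDP CD103 low, 5.06 to 5.20 in PBS CD103 high and 5.19 to 5.56 in PBS CD103 low arrays, the 6.18 again in MDP CD103 low replicate 1. The log2 difference of Irf4 averaged over treatments, CD103 high minus low, was -0.32 (limma, adjusted p = 0.475), and -0.17 without that array (limma, adjusted p = 0.519). Cd4, of the same list, went the other way, at a mean over all arrays of 5.20. Its CD103 high minus low log2 difference was 0.46 in PBS mice (limma, adjusted p = 0.365). Averaged over treatments it was 0.25 (limma, adjusted p = 0.462). On that average 10 of the 13 genes had a value below 0 and 3 above, with 11882 of 22180 below 0 over all genes.

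The lysosomal markers Lyz2 and Cd68, used for mononuclear phagocytes, were well above background in these cDC1. Lyz2 encodes lysozyme M, which cuts bacterial peptidoglycan and is a standard marker of monocytes, macrophages and neutrophils. In CD103 high cells Lyz2 had log2 values of 8.41, 8.48 and 7.97 in MDP mice, against 8.84, 8.66 and 9.16 in PBS mice. The 2 groups did not overlap, MDP CD103 high replicate 4 was the lowest array of all 13 and PBS CD103 high replicate 6 the highest. In CD103 low cells it had 8.82, 8.40 and 8.54 in MDP mice, against 8.73, 8.64, 8.40 and 8.82 in PBS mice, and these overlapped throughout.

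The MDP minus PBS log2 difference of Lyz2 in CD103 high cells was -0.60 ± 0.17 (SE; 95% interval -0.96 to -0.24; limma, adjusted p = 0.101), a 1.52-fold difference, and between -0.71 and -0.45 with each array left out in turn. With only the 11716 genes above background tested, the adjusted p was 0.0489 (limma). In CD103 low cells the log2 difference was -0.06 (95% interval -0.40 to 0.27; limma, adjusted p = 0.965). The interaction was -0.54 ± 0.23 (limma, adjusted p = 0.469). In the same-numbered PBS arrays Lyz2 was higher in CD103 high cells by 0.44 and 0.34 on the log2 scale, and in those of MDP mice the differences were 0.01 and -0.06.

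Lyz1, the neighbouring lysozyme P gene, followed the same extremes. Its log2 values were 6.32, 6.48 and 5.96 in MDP CD103 high cells, against 6.30, 6.48 and 7.35 in PBS CD103 high cells, with an adjusted p of 0.415 (limma). MDP CD103 high replicate 4 was again the lowest array and PBS CD103 high replicate 6 the highest. Lyz1 and Lyz2 are closely similar copies, and how far their probe sets share signal was not tested. The genes most like Lyz2 over the 13 arrays were Niban1 (Pearson r = 0.912), Crebl2 (r = 0.882) and 5830428M24Rik (r = 0.881).

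The promoter of Lyz2 is shown because Lyz2 had the widest span of group means, and that of Ly6c2, the monocyte marker, because it spread widely within groups. Both are the 250 bases before the start from RefSeq (GRCm38.p6), read 5′ to 3′ along the gene: Lyz2 at chr10:117282273-117282522 on the minus strand and Ly6c2 at chr15:75111972-75112221 on the minus strand, the first of 2 listed starts. Capitals mark AGGAAG or its complement CTTCCT, the core letters bound by PU.1, a factor of myeloid cells; both strands were searched, and these letters are in 29.5% of the 32851 promoters of this length.
Lyz2: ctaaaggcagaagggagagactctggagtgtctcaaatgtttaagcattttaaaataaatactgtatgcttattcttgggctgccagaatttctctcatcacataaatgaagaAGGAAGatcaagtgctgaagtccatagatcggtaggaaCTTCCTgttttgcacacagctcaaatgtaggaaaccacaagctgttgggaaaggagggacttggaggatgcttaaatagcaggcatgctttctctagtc
Ly6c2: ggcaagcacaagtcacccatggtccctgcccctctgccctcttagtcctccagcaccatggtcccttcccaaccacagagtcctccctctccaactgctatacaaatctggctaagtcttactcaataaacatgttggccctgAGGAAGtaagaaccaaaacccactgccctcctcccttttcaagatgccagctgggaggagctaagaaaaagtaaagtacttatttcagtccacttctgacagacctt
The Lyz2 window holds 2 matches, 1 on each strand, and the Ly6c2 window holds 1. Promoters were found for 5 of the 9 markers, and those of Itgam and Mgl2 hold the letters as well, while that of Cd68 holds none. A match describes these letters only and says nothing of binding.

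Cd68 encodes macrosialin, a lysosomal membrane glycoprotein used to stain macrophages and also made by dendritic cells. It was bright in every array, with log2 values of 10.12, 10.39 and 10.11 in MDP CD103 high, 10.05, 10.07 and 10.32 in MDP CD103 low, 10.06, 10.15 and 10.15 in PBS CD103 high and 10.30, 10.29, 10.15 and 10.13 in PBS CD103 low cells. All groups overlapped. The 95% intervals of its 4 pairwise log2 differences lay within -0.30 to 0.31, which leaves room for changes of up to about that size in either direction.

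Adgre1 encodes F4/80, the adhesion receptor of red pulp macrophages and some monocytes. Adgre1 had log2 values of 5.55, 5.44 and 5.44 in MDP CD103 high cells, against 5.05, 5.43 and 5.14 in MDP CD103 low cells. In PBS mice they were 5.58, 5.38 and 5.57 in CD103 high cells, against 5.44, 5.44, 5.31 and 5.39 in CD103 low cells. The MDP groups did not overlap, but MDP CD103 low replicate 2, at 5.43, lay just under the lowest CD103 high arrays, and the PBS groups overlapped. The values of Adgre1 had the opposite sign to those of Sirpa, with a log2 difference of 0.27 in MDP mice (limma, adjusted p = 0.336) and 0.19 on average over treatments (limma, adjusted p = 0.394). Without MDP CD103 low replicate 1, the lowest array, the first was 0.19 (limma, adjusted p = 0.728). It was higher in CD103 high cells in all 4 same-numbered pairs, by 0.12 and 0.30 in MDP mice and 0.27 and 0.18 in PBS mice.

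Ly6c2 encodes a GPI-anchored Ly6C protein that marks classical monocytes and is induced by interferon in other leukocytes. Its log2 values were 7.14, 7.65 and 7.02 in MDP CD103 high cells and 8.02, 7.56 and 7.74 in MDP CD103 low cells. They were 8.23, 8.07 and 7.08 in PBS CD103 high cells and 8.26, 7.74, 7.90 and 6.87 in PBS CD103 low cells. Within PBS, replicate 6 was the lowest array of both subsets with the next array at 8.07 in CD103 high and 7.74 in CD103 low cells, and the spread within groups (SD 0.62 and 0.59) exceeded the gap between them. The CD103 high minus low log2 difference in MDP mice was -0.50 (limma, adjusted p = 0.672), and -0.38 without MDP CD103 low replicate 1 (limma, adjusted p = 0.902).

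The MDP minus PBS log2 difference of Ly6c2 in CD103 high cells was -0.52 (limma, adjusted p = 0.567). Within the arrays with low Xist it was 0.06, but that sets 1 MDP array against 1 PBS array. The 7 arrays with high Xist had Ly6c2 at 7.02 to 8.26 and the 6 with low Xist at 6.87 to 8.02, a log2 difference of 0.53 ± 0.20 with the groups in the fit (limma, adjusted p = 0.725). Both replicate 6 arrays of PBS mice were of the low Xist kind. The part of the animals' sex in this spread was not tested beyond these values.

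Over the 13 arrays the genes most like Ly6c2 were Zbp1 (Pearson r = 0.895), a sensor of Z-form nucleic acid, Isg15 (r = 0.879), a ubiquitin-like protein, and Parp14 (r = 0.87), each known to be raised by interferon. These 3 were picked by correlation, and interferon-induced genes as a group were not examined here. Isg15 had log2 values of 7.28, 7.96 and 7.92 in MDP CD103 high, 8.09, 7.67 and 7.95 in MDP CD103 low, 8.58, 8.60 and 7.45 in PBS CD103 high and 8.70, 7.77, 8.58 and 7.01 in PBS CD103 low cells. Replicate 6 of PBS mice was the lowest in its group for Isg15 too, in both subsets. The 13 arrays may not be independent points, since same-numbered arrays of a treatment were taken as pairs, and the correlations carry no test.

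The promoter of Isg15 is shown beside that of Ly6c2 because the 2 genes varied together. It is the 250 bases before the start, chr4:156200819-156201068 on the minus strand (RefSeq, GRCm38.p6), with capitals marking 2 copies of GAAA with 2 bases between them, the core letters of interferon response elements, searched on both strands and with overlapping matches merged.
Isg15: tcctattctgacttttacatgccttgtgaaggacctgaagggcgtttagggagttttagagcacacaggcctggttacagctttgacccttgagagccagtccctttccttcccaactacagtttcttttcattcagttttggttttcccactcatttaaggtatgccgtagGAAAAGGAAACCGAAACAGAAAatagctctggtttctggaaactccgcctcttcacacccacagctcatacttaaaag
It holds 3 overlapping matches. The same letters are in 2.98% of all promoters of this length and in 0 of the 6 windows of the 5 markers with a promoter, those of both Ly6c2 starts included. Absence of these letters from 250 bases says nothing of sites elsewhere.

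Ly6c1, the near-identical neighbour of Ly6c2 that marks endothelial cells as well, was below background, at 3.62 ± 0.40 in MDP CD103 high, 3.65 ± 0.42 in MDP CD103 low, 3.88 ± 0.18 in PBS CD103 high and 3.46 ± 0.38 in PBS CD103 low cells (log2, SD). How far the 2 probe sets share signal was not tested.

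**Figure D4:**
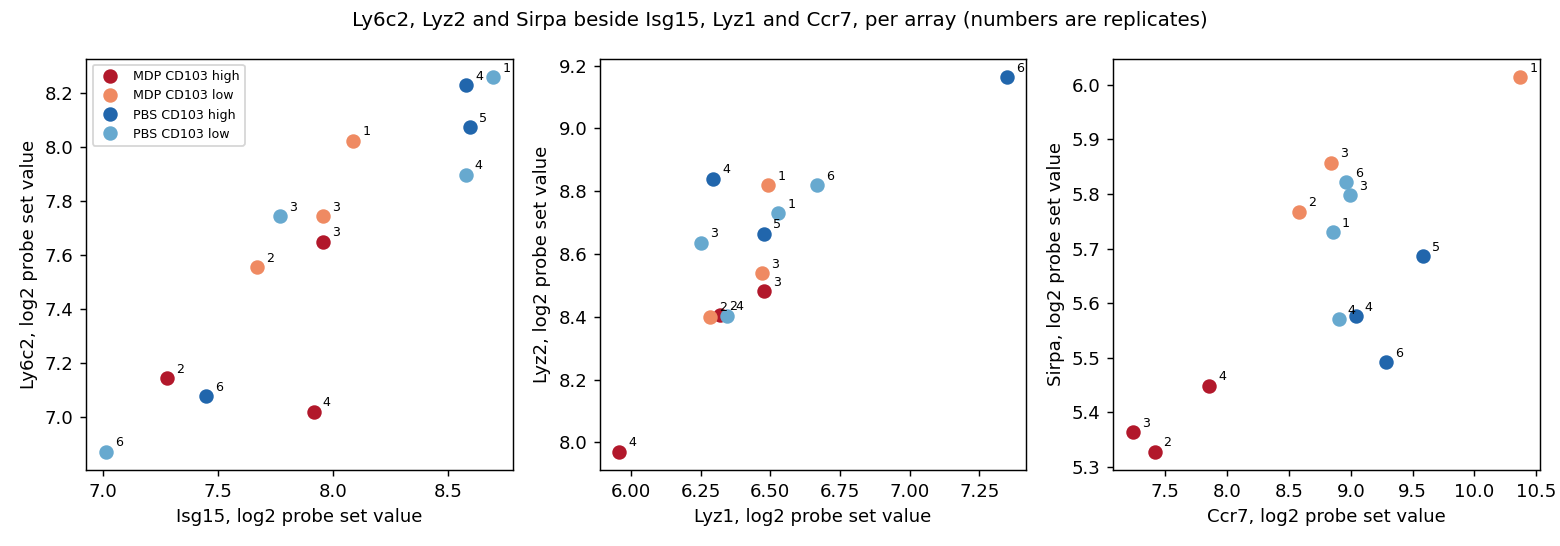
Log2 values per array (points, coloured by group, numbered by replicate) of Ly6c2 against Isg15, Lyz2 against Lyz1 and Sirpa against Ccr7. PBS replicate 6 of both CD103 groups lies low in the first panel (Ly6c2 at 7.08 and 6.87), and MDP CD103 low replicate 1 lies highest in the third (Ccr7 at 10.37, Sirpa at 6.01).

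Of the other monocyte and macrophage genes, 24 of 26 were measured and 11 of these were at or below background, and 2 genes were called. Macrophage genes, named here after their values were seen, lay on both sides of background. Csf1r, the receptor for macrophage colony-stimulating factor, averaged 6.10 ± 0.20 in MDP CD103 high, 5.88 ± 0.22 in MDP CD103 low, 5.67 ± 0.24 in PBS CD103 high and 5.93 ± 0.26 in PBS CD103 low cells (log2, SD). Timd4, Vcam1, C1qa and C1qb, genes of tissue macrophages, were above background too, with means over all arrays of 6.45, 6.26, 5.39 and 5.13. Fcgr1, Mertk and C1qc were below it in all 4 groups, at 4.50, 4.76 and 4.39 in MDP CD103 high cells and at 4.65, 4.88 and 4.52 in PBS CD103 low cells. Between MDP and PBS in CD103 high cells, 21 of the 24 had a value below 0, with a median log2 difference of -0.17 against -0.01 for all genes, and 2 of 24 fell past the threshold, where 0.397% of all genes did. Without MDP CD103 low replicate 1 it was 3 of 24, with no share of all genes taken for that fit. Over all genes, 82 to 594 were called in either direction with each array left out in turn, against 403 in all arrays. The step from 2 to 3 therefore cannot be read as a stronger result.

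Plac8, a small cysteine-rich protein of monocytes and other leukocytes, fell in CD103 high cells of MDP mice. Its log2 values were 10.19, 10.19 and 10.10 in MDP CD103 high cells, against 10.58, 10.52 and 10.57 in MDP CD103 low cells and 10.61, 10.60 and 10.54 in PBS CD103 high cells. PBS CD103 low cells had 10.63, 10.69, 10.65 and 10.55. The 3 MDP CD103 high arrays were the lowest of all 13, as for Sirpa. The log2 difference was -0.40 ± 0.07 for CD103 high minus low in MDP mice (limma, adjusted p = 0.0216; 0.0116 with the pairs within treatment as a random block and 0.363 as a fixed block) and -0.42 ± 0.07 for MDP minus PBS in CD103 high cells (limma, adjusted p = 0.00697). These 2 comparisons share the MDP CD103 high arrays. The first call was lost in 11 of 25 alternatives, among them without any 1 of the 3 MDP CD103 high arrays (limma, adjusted p = 0.0608 to 0.101), MDP CD103 low replicate 1 (0.0664) or replicate 3 (0.053), and the second in 3 of 24, with no sign turned.

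Ms4a7, a tetraspan protein of macrophages, fell likewise in CD103 high cells of MDP mice. It had log2 values of 4.50, 4.77 and 4.69 in MDP CD103 high cells, against 5.21, 5.48 and 5.43 in PBS CD103 high cells. The groups did not overlap, but only PBS CD103 high cells were above background as a group. The log2 difference was -0.72 ± 0.13 (limma, adjusted p = 0.0147), and the call was lost without MDP CD103 high replicate 2 (limma, adjusted p = 0.0715), PBS CD103 high replicate 5 (0.075) or replicate 6 (0.0793).

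Ccr2, the chemokine receptor that brings classical monocytes out of the marrow, was not called, with log2 values of 5.79, 6.19 and 5.76 in MDP CD103 high cells, against 7.37, 6.04 and 6.90 in MDP CD103 low cells. In PBS mice it had 5.38, 4.77 and 5.38 in CD103 high cells, against 5.98, 5.97, 5.87 and 6.26 in CD103 low cells, with no overlap. The log2 difference averaged over treatments was -0.85 ± 0.19 (limma, adjusted p = 0.124), and -0.70 ± 0.16 without MDP CD103 low replicate 1 (limma, adjusted p = 0.184).

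Markers of other cells were mostly dim in these sorts. At or below background were 11 of 12 neutrophil, 8 of 9 B cell, 5 of 7 T cell, 5 of 6 natural killer cell, 4 of 4 erythroid and 4 of 7 melanoma markers, and none of these lists had a called gene in any contrast. Over all genes, 11716 of 22180 lay above background. Among the exceptions were Ms4a1 of the B cell list and Cd5 of the T cell list, with means over all arrays of 6.90 and 6.89. Of the cDC1 markers only Itgae, the gene of the sort, was called. Plasmacytoid dendritic cell markers had 2 of 10 genes at or below background, and 2 of 10 were called higher in PBS CD103 high than PBS CD103 low cells, where 0.0451% of all genes were. In MDP against PBS CD103 high cells 2 of 10 were called lower, where 0.397% of all genes were.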

How the data were processed

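RNA of sorted cells (400 ng, pre-amplified) was measured on 13 arrays. The deposited log2 values are probe set summaries made by the authors with RMA in Affymetrix Expression Console, per the submitters' processing notes. For versions and genome build, the sources used here give none. RMA equalises array distributions, so a shift shared by most genes is not visible. Array medians were 5.00 to 5.13. Of 41345 probe sets, 23521 had 1 symbol; the one with the highest mean per gene gave 22180 genes, with no filter. Probe genes come from the platform annotation, and 21994 genes matched the RefSeq table. Markers and lists were chosen with earlier results of these data known. Named genes mostly followed a rule: all 9 markers, their relatives and list members with the smallest p. It added genes with the highest correlation to markers spanning 0.5 or more. Not every list member with a small p was named. Ccr2 was, and Chil3 of the same list was not (limma, unadjusted p = 0.00566 and 0.00562, CD103 high minus low in PBS mice). Ms4a1, Cd5 and the genes marked as such were named after their values were seen.

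With limma 3.58.1 in R 4.3.3, 1 mean per group was fitted to all arrays, followed by eBayes (9 residual and 3.86 prior degrees of freedom; median SE 0.0754 to 0.151), two-sided, with Benjamini-Hochberg adjustment over all genes. The fit was tested on simulated data. Only arrays of the same number were compared. Within a treatment their deviations from group means correlated weakly in all 4 pairs (r = 0.11 to 0.28, over 11712 genes). These arrays were also of the same Xist kind and were taken as pairs. Across treatments r was -0.13 to 0.38, so the highest value was there, and the labels give no meaning to the numbers. Pairs were fitted as a random block and, for CD103 contrasts, as a fixed block; MDP minus PBS has no pairs. Other alternatives covered filters, Xist and each array left out.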

Additional observations from a re-analysis of the deposited data

How the results depend on the processing

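The number of arrays, and for Mgl2, Clec4a4, Ly6c1 and Ms4a7 a signal near or under background, limit these results. Of 411 values of 17 marker differences under the alternatives, 394 kept their sign and their side of the threshold, 13 lost a call, 3 gained one and 1 turned its sign. The one that turned was Ly6c2, MDP minus PBS in CD103 high cells, at 0.0647 without the arrays with Xist above the midpoint, against -0.52 in all arrays. The 0.0647 sets 1 MDP array against 1 PBS array, and the cause was not tested. For CD103 high against low in MDP mice, too, either Xist kind alone leaves 1 array in 1 of the groups. The 13 lost calls are all of Sirpa between CD103 high and low cells of MDP mice, so that 0 of 9 markers were called there with all probe sets tested, with only the groups compared fitted, with the replicate number over both treatments as a block, with the pairs within treatment as a fixed block, with a covariate for Xist, and without the arrays of either Xist kind (the fixed pairs and leaving out low Xist were chosen after seeing the data); the count was 0 to 1 with each array left out. With only genes above background tested, 1 marker was called in the average of CD103 high minus low (Sirpa, limma, adjusted p = 0.0261) and 1 between MDP and PBS in CD103 high cells (Lyz2, limma, adjusted p = 0.0489); the random replicate block called 1 in that average (Sirpa, limma, adjusted p = 0.0431). Of 169 counts of called markers, 153 were as reported and 16 moved. The block over both treatments called 0 genes in every contrast. It links MDP and PBS arrays of the same number, and the labels do not say whether these belong together. This block also ended the calls of Plac8 and Ms4a7 (limma, adjusted p = 0.135 to 0.524), which the random block within treatment kept. No block changed any other marker call. Over all genes, the number called between CD103 high and low was 116 in MDP mice (0 to 228 over the alternatives) and 17 in PBS mice (0 to 25), and between MDP and PBS it was 403 in CD103 high cells (0 to 699) and 1 in CD103 low cells (0 to 2). The averages gave 28 (0 to 87) for CD103 and 41 (0 to 212) for MDP, and the interaction 16 (0 to 134).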

Other observations

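MDP CD103 low replicate 1 differed from the other 2 arrays of its group in several genes of mature dendritic cells and macrophages, which were chosen after their values were seen. Anxa3, an annexin, was at 8.56 on the log2 scale in this array, against 6.19 and 6.11 in the other two. Stat4, a signal transducer of interleukin-12, was at 5.92, against 4.38 and 3.80. Vcam1, an adhesion molecule of splenic macrophages and stroma, was at 7.21, against 6.23 and 5.69. Spic, the transcription factor of red pulp macrophages, was at 5.87, against 4.85 and 4.71, while Adgre1, a marker of the same macrophages, was lowest of all 13 arrays there, at 5.05.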
